A study of Mus musculus with 8 samples.

Results

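Expression of complement components and receptors was examined in bone marrow-derived macrophages (BMDMs) of WT and Gsdmd-/- mice. The 9 genes were found by their symbols in a table of 54532 genes. They encode the C1q subunits (C1qa, C1qb and C1qc), the central component C3, the alternative pathway proteins properdin (Cfp) and factor B (Cfb), and the receptors C3ar1, C5ar1 and C5ar2. BMDMs were grown for 6 days with macrophage colony-stimulating factor (M-CSF) and received no treatment, and 4 libraries of each genotype were sequenced. WT mice were purchased C57BL/6J females aged 6 to 8 weeks. Gsdmd-/- mice were a gift from another laboratory and kept in the authors' facility. The methods give that sex and age for BMDM donors in general, without naming the genotype, and genotype and colony cannot be told apart. It is not stated in the labels or methods if the libraries were made from different mice, and p-values then measure only the spread between these libraries.

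Complement is a cascade of plasma proteins that marks particles and cells for uptake and recruits leukocytes. In the classical pathway C1q recognizes antibody or other bound ligands and activates its proteases, which leads to cleavage of C3. In the alternative pathway factor B binds deposited C3 fragments and properdin stabilizes the resulting convertase. The peptides C3a and C5a are released during activation and bind G protein-coupled receptors, C3ar1 for C3a and C5ar1 for C5a, while C5ar2 binds C5a without classical G protein coupling. The liver makes most of the plasma proteins, but macrophages are known as a main source of C1q and also secrete C3 and properdin.

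Total counts lay between 14935114 and 16794810 per library. Levels are given in CPM (counts per 1000000 counts of the library, scaled by the TMM method). Where no read was counted the true level could still be as high as 3 counts, or 0.177 to 0.199 CPM, a limit for counting error only. Means are given ± SD over the 4 libraries of a genotype (n = 4) and log2 fold changes (Gsdmd-/- against WT) ± their standard error. Gsdmd, the targeted gene, averaged 75.3 ± 14.1 CPM in WT against 16.2 ± 1.56 CPM in Gsdmd-/- libraries, and the ranges were separate. The macrophage markers Adgre1, Csf1r, Cd68, Lyz2, Mertk and Itgam were detected in all 8 libraries, from 101 CPM (Mertk in WT 4) upwards. WT 2 and WT 3 stood apart from the other libraries on the first principal component (43.6% of the variance) with scores of 45.4 and 38.8, whereas the other 6 libraries lay between -25.9 and -7.2. The comparison of genotypes is therefore also given without these libraries, and, as their counterpart, without WT 1 and WT 4. RNA came from whole cultures, in which fewer cells of a type and less RNA per cell cannot be told apart.

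The promoters of 7 of the 9 genes were found by symbol in RefSeq (build GRCm38.p6). The set of RefSeq promoters used here held no window under the symbols C1qa and Cfb, which does not mean that RefSeq lacks these genes. Those of C1qb, C1qc and C3 are shown because these genes varied together between the libraries, and that of C5ar2 because it was the gene whose genotypes did not overlap. Each sequence is the 250 bases before the annotated start, 5′ to 3′ on the gene's strand, and for C5ar2 it is the window at the outer of the annotated starts. Capitals mark matches to GAGGAA (a PU.1 core) and TTGCNNAA (a C/EBP-like site), searched on both strands.
C1qb (chr4:136886201-136886450, minus strand): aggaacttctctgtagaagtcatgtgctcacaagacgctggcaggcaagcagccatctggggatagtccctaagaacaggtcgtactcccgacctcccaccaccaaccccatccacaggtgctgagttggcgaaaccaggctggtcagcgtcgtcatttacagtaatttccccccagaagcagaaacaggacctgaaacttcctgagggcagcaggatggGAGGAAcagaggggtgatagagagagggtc
C1qc (chr4:136892915-136893164, minus strand): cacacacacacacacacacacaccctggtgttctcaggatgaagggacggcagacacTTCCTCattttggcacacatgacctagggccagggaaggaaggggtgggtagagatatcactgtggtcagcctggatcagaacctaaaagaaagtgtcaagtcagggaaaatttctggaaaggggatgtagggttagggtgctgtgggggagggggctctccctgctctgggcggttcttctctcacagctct
C3 (chr17:57228137-57228386, minus strand): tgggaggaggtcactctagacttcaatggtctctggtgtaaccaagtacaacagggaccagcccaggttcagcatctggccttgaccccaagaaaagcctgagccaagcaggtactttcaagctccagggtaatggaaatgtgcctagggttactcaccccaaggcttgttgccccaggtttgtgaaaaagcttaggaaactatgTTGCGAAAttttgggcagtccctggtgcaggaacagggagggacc
C5ar2 (chr7:16244155-16244404, minus strand): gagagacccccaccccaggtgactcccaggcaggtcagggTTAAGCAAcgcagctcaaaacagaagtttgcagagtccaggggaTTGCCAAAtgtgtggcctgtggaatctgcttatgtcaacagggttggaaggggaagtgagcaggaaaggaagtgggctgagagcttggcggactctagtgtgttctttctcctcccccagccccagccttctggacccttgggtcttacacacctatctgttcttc
C1qb held GAGGAA from -30 to -25, and C1qc held GAGGAA on the opposite strand from -193 to -188 (bases counted back from the start). C3 held TTGCNNAA from -45 to -38. C5ar2 held 2 matches to TTGCNNAA, from -210 to -203 on the opposite strand and from -166 to -159, and its window at the inner start, not shown, held GAGGAA from -26 to -21. None of these matches overlapped. Of all 32851 windows of this length in the set used, GAGGAA was in 23.3% and TTGCNNAA in 9.56%, so matches like these are frequent. TATAAA (the TATA box, in 12.4% of windows) was searched as well and had no match in the sequences shown. A match of letters is a description and not a binding site.

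C1q was examined first. The 3 subunit genes lie side by side on chromosome 4 within 18675 bases (136880129 to 136898803, minus strand, GRCm38), and equal numbers of the A, B and C chains form the C1q molecule. Expression of all 3 genes differed far more among the WT libraries than between the genotypes. C1qa (ENSMUSG00000036887) had 44.9, 4.46, 6.66 and 77.6 CPM in WT 1 to 4 and 15.2, 11.8, 13.4 and 8.96 CPM in Gsdmd-/- 1 to 4. C1qb (ENSMUSG00000036905) had 219, 34.9, 44.95 and 273 CPM in WT 1 to 4 and 112, 89.2, 125 and 97.8 CPM in Gsdmd-/- 1 to 4. C1qc (ENSMUSG00000036896) had 121, 14.5, 13.4 and 148 CPM in WT 1 to 4 and 67.4, 51.8, 61.2 and 43.3 CPM in Gsdmd-/- 1 to 4. For each subunit, WT 1 and WT 4 were above every Gsdmd-/- library and WT 2 and WT 3 were below every one, so the WT range enclosed the Gsdmd-/- range. From the lowest to the highest WT library C1qa differed 17.4-fold, C1qb 7.83-fold and C1qc 11.1-fold, while among the Gsdmd-/- libraries these ratios were 1.70, 1.40 and 1.56.

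C3 (ENSMUSG00000024164, chromosome 17 from 57203970 to 57228136) placed the WT pairs in the same way. Its values were 97.1, 14.7, 17.1 and 116 CPM in WT 1 to 4 and 47.6, 41.9, 26.3 and 33.6 CPM in Gsdmd-/- 1 to 4. Again the Gsdmd-/- libraries lay between the pairs of WT libraries, with a 7.91-fold range in WT and a 1.81-fold range in Gsdmd-/- macrophages.

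Properdin, encoded by Cfp (ENSMUSG00000001128, X chromosome from 20925454 to 20931555), varied less. Cfp had 281, 142, 155 and 357 CPM in WT 1 to 4 and 261, 232, 278 and 239 CPM in Gsdmd-/- 1 to 4. WT 1 was close to the highest Gsdmd-/- library, and WT 2 and WT 3 were below all of them. Factor B, encoded by Cfb (ENSMUSG00000090231, chromosome 17 from 34856374 to 34862518), was at the limit of detection. Cfb had 5, 0, 1 and 7 counts in WT 1 to 4 and 2, 1, 1 and 1 counts in Gsdmd-/- 1 to 4, and the filter on low counts removed it from the test. Only 3 of these 8 counts were above 1, so a difference was not detectable at this depth.

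**Figure D1:**
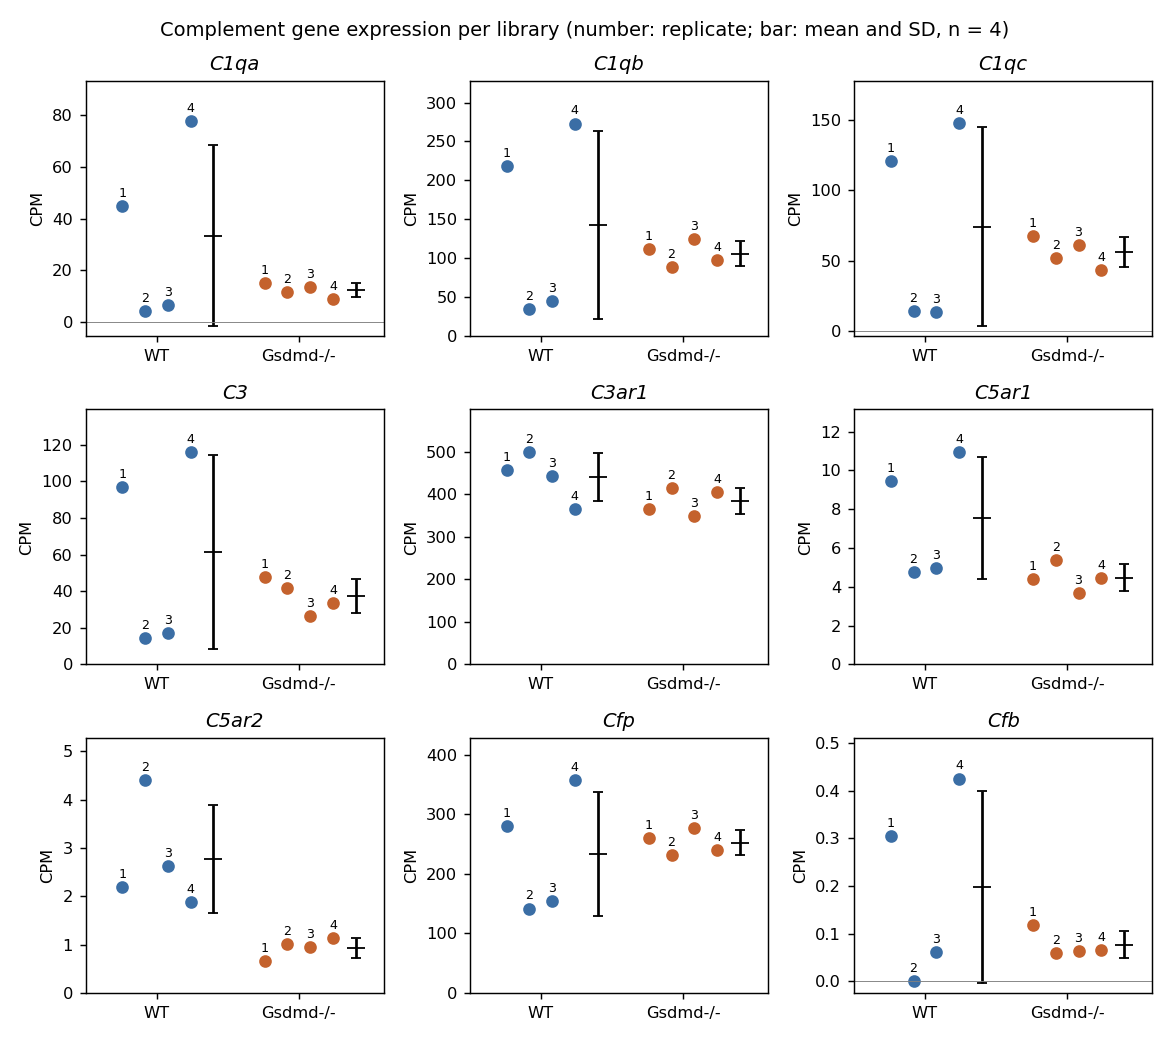
Expression of the 9 complement genes in CPM (vertical axes, from 0 or just below) in the 4 WT (blue) and 4 Gsdmd-/- (orange) libraries, each point a library with its replicate number, with mean and SD beside them. WT 1 and WT 4 lie above and WT 2 and WT 3 below the Gsdmd-/- libraries for C1qa, C1qb, C1qc, C3 and Cfp, while for C5ar2 all WT libraries lie above.

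The receptors followed other patterns. C5ar1 and C5ar2 are neighbours on chromosome 7, within 24956 bases (16234585 to 16259540, minus strand). C5ar1 (ENSMUSG00000049130) had 9.43, 4.77, 4.95 and 11.0 CPM in WT 1 to 4 and 4.38, 5.38, 3.68 and 4.45 CPM in Gsdmd-/- 1 to 4. WT 1 and WT 4 were again above the other libraries, but WT 2 and WT 3 lay within the Gsdmd-/- range. C5ar2 (ENSMUSG00000074361) had 2.19, 4.40, 2.63 and 1.89 CPM in WT 1 to 4 and 0.652, 1.01, 0.951 and 1.13 CPM in Gsdmd-/- 1 to 4. Every Gsdmd-/- library was below every WT library, and among the WT libraries WT 2 and WT 3 were the highest and not the lowest. These values rest on few reads, with 36, 72, 43 and 31 counts in WT 1 to 4 and 11, 17, 15 and 17 counts in Gsdmd-/- 1 to 4. C3ar1 (ENSMUSG00000040552, chromosome 6 from 122847138 to 122856161) was the receptor with the most counts, with 458.0, 499.5, 444 and 365 CPM in WT 1 to 4 and 365, 414, 350.0 and 405 CPM in Gsdmd-/- 1 to 4. The genotypes overlapped for C3ar1, and its range was 1.37-fold in WT and 1.18-fold in Gsdmd-/- macrophages.

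The spread within each genotype was measured as the SD of log2 CPM over its 4 libraries. In all 8 genes that passed the filter it was larger in WT than in Gsdmd-/- libraries, as it was in 71.7% of all genes. It was 2.01 for C1qa, 1.88 for C1qc, 1.59 for C3 and 1.53 for C1qb in WT, where the median of 12911 genes was 0.24. A WT SD at least that of C1qa was found in 17 genes (0.132%, C1qa included), and one at least that of C1qb, the lowest of the 4, in 66 genes (0.511%). In Gsdmd-/- libraries the SD of the same 4 genes was 0.32, 0.28, 0.38 and 0.21 against a median of 0.16. C3ar1, with 0.19 in WT, was below the median. WT 2 and WT 3 were the lowest WT libraries for 6 of these 8 genes and the highest for 1 (C5ar2), while over all genes the lowest share was 28.7% and the highest share 29.4%. For 5 of the 8 genes (the C1q genes, C3 and Cfp) the Gsdmd-/- libraries lay between the WT pairs, which held for 2.67% of all genes. This pattern was noticed in the data and is given as a description.

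**Figure D2:**
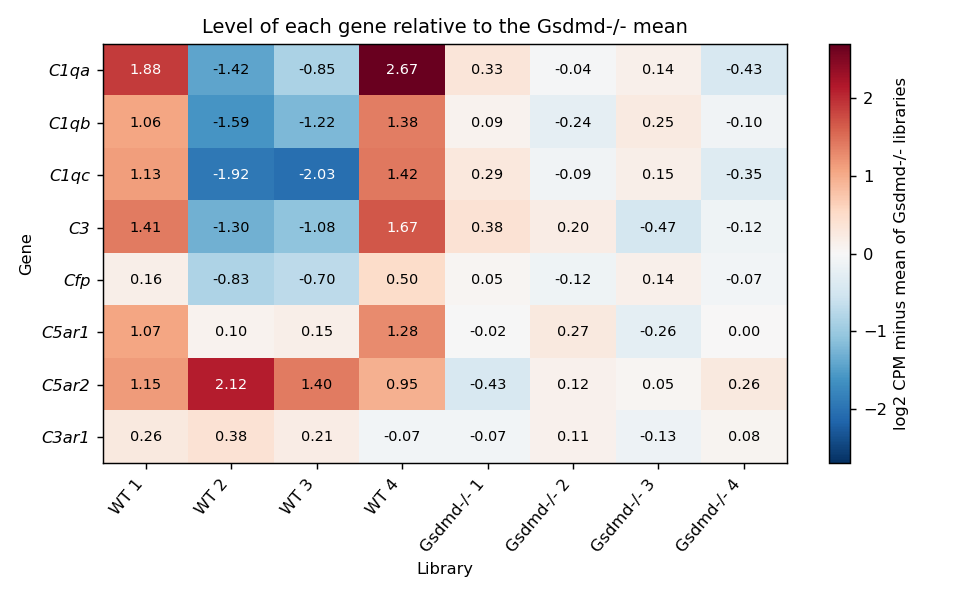
log2 CPM of each gene (rows) in each library (columns) minus the mean of the Gsdmd-/- libraries, with red above and blue below that mean. C1qa runs from -1.42 in WT 2 to 2.67 in WT 4, C5ar2 is above the mean in every WT library (0.95 to 2.12), and C3ar1 stays between -0.13 and 0.38.

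The genotypes were then compared across all genes with the quasi-likelihood test of edgeR. None of the 8 tested complement genes had an adjusted p under 0.05, where 0.349% of all genes did (0.209% lower and 0.139% higher in Gsdmd-/- macrophages). At an unadjusted p under 0.05, 2 of the 8 passed, where 12.0% of all genes did. By the exact test of edgeR and by DESeq2 1 of them (C5ar2) was lower with an adjusted p under 0.05, where 1.19% and 1.45% of all genes were. The study's own cutoff was a p under 0.05 before adjustment together with a log2 fold change of 0.5 or more in size. By this cutoff 2 of the 8 were lower (C5ar1 and C5ar2) and 0 were higher, where 3.28% of all genes were lower and 1.54% higher. The median log2 fold change of the 8 genes was -0.57 and that of all genes was -0.0068, with 7 of the 8 genes and 51.5% of all genes below 0. C5ar2 was the only one of the 8 without overlap between the genotypes, where 4.12% of all genes were lower and 3.48% higher without overlap.

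C5ar2 averaged 2.78 ± 1.12 CPM in WT against 0.934 ± 0.202 CPM in Gsdmd-/- macrophages, which left 33.7% of the WT level. Its log2 fold change of -1.57 ± 0.324 had an adjusted p of 0.0904. The direction was the same under all 18 alternatives, with adjusted p from 0.00238 to 0.335. Of the single libraries, leaving out WT 4 alone brought C5ar2 under the threshold (log2 fold change -1.71), where 0.427% of all genes were called lower. C5ar1 averaged 7.53 ± 3.14 CPM in WT against 4.47 ± 0.699 CPM in Gsdmd-/- macrophages, and its log2 fold change of -0.75 ± 0.282 had an adjusted p of 0.335. C3ar1 averaged 441.5 ± 56.3 CPM against 384 ± 30.9 CPM, with a log2 fold change of -0.20 ± 0.108 and an adjusted p of 0.507.

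Among the components, C1qa averaged 33.4 ± 34.8 CPM in WT against 12.3 ± 2.66 CPM in Gsdmd-/- macrophages, and its log2 fold change of -1.44 ± 0.733 had an adjusted p of 0.489. The SD of WT exceeded its mean, so the difference of the means was smaller than the spread between WT libraries. For C1qb the log2 fold change was -0.43 ± 0.559 and for C1qc -0.41 ± 0.668 (adjusted p = 0.804 and 0.850), and for both the direction turned with limma voom, to 0.09 and 0.35, as it did without WT 4 alone, to 0.09 and 0.18. C3 averaged 61.2 ± 53.0 CPM in WT against 37.3 ± 9.35 CPM in Gsdmd-/- macrophages, with a log2 fold change of -0.71 ± 0.591 and an adjusted p of 0.687. Cfp averaged 233.5 ± 104 CPM against 252 ± 20.9 CPM, with a log2 fold change of 0.11 ± 0.260 and an adjusted p of 0.900, which turned to -0.07 without WT 2 alone and -0.04 without WT 3 alone.

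What these comparisons gave depended on which WT libraries were kept. Without WT 2 and WT 3, 5 genes fell in Gsdmd-/- macrophages with an adjusted p under 0.05, where 0.813% of all genes did. On the log2 scale C1qa was then at -2.31 (adjusted p = 0.00227), C1qb at -1.22 (adjusted p = 0.00536), C1qc at -1.27 (adjusted p = 0.00858), C3 at -1.51 (adjusted p = 0.00858) and C5ar1 at -1.19 (adjusted p = 0.0125). By the study's cutoff 6 of the 8 genes were lower, where 3.15% of all genes were. Without WT 1 and WT 4, the C1q genes, C3 and Cfp rose instead, 5 genes with an adjusted p under 0.05, where 9.37% of all genes did. The log2 fold change was 1.15 for C1qa (adjusted p = 0.00738), 1.41 for C1qb (adjusted p = 2.72e-04), 2.0 for C1qc (adjusted p = 6.67e-05), 1.23 for C3 (adjusted p = 0.00336) and 0.77 for Cfp (adjusted p = 7.12e-04). C5ar2 and C3ar1, 2 genes, were called lower there, where 11.3% of all genes were. By the study's cutoff 5 genes were higher and 1 lower, where 6.64% of all genes were higher and 9.84% lower. The same omission left C5ar1 at -0.12 (adjusted p = 0.695). These fits hold 2 WT libraries each, and those libraries differ in the very genes compared, so the calls describe the libraries kept. C5ar2 stayed lower with either choice, at -1.13 (adjusted p = 0.142) without WT 2 and WT 3 and -1.91 (adjusted p = 0.00238) without WT 1 and WT 4. C3ar1 was at -0.11 (adjusted p = 0.808) and -0.30 (adjusted p = 0.0459).

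**Figure D3:**
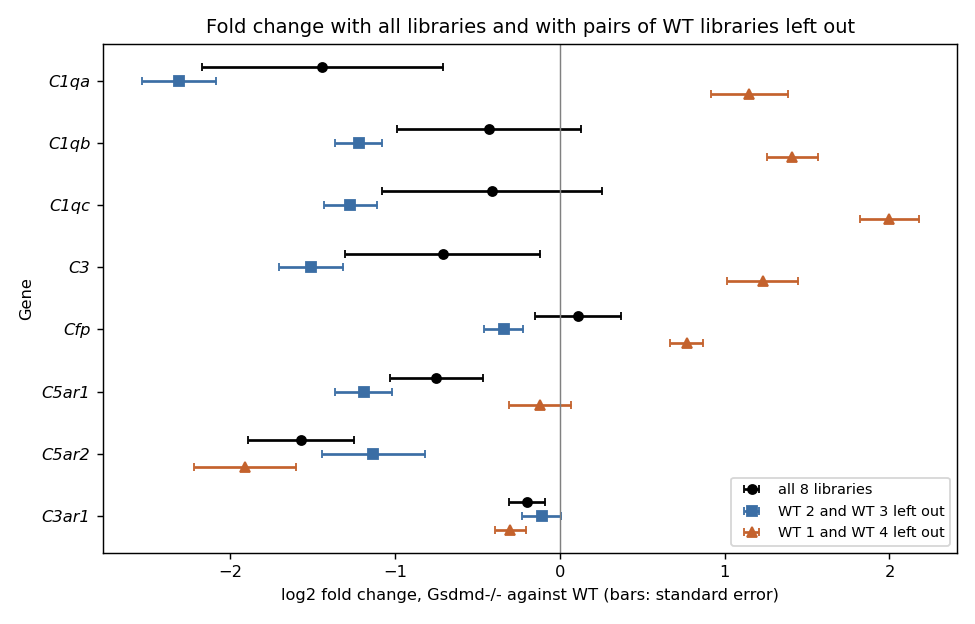
log2 fold change of Gsdmd-/- against WT (horizontal axis) with its standard error for the 8 tested genes, with all libraries (black), without WT 2 and WT 3 (blue) and without WT 1 and WT 4 (orange). The blue and orange points of C1qa (-2.31 and 1.15), C1qb, C1qc, C3 and Cfp lie on opposite sides of 0, and those of C5ar2 (-1.13 and -1.91) on the same side.

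Markers of other cells were set beside these values. The summed level of 4 monocyte markers was 57.5, 11.5, 10.7 and 58.5 CPM in WT 1 to 4 and 29.1 to 38.6 CPM in Gsdmd-/- libraries, with the WT pairs on the same sides of the Gsdmd-/- libraries as for C1q. In it Ly6c2, a surface antigen of inflammatory monocytes, had 35.5, 1.53, 0.427 and 30.3 CPM in WT 1 to 4. The 8 macrophage markers did not move together. Fcgr1, the high-affinity IgG receptor of macrophages, had 36.2, 7.09, 6.66 and 40.7 CPM in WT 1 to 4 and 17.8 to 26.9 CPM in Gsdmd-/- libraries. Mertk, a receptor for the uptake of dying cells, went the other way, with 141, 250, 212 and 101 CPM in WT 1 to 4 and 103 to 142 CPM in Gsdmd-/- libraries, and Adgre1 was also highest in WT 2 and WT 3 (291, 319, 326 and 277 CPM in WT 1 to 4 and 242 to 275 CPM in Gsdmd-/- libraries). The sums of all 8 were 15300 to 23500 CPM in WT and 19400 to 23400 CPM in Gsdmd-/- libraries, lowest in WT 2 and WT 3, and most of it was Lyz2. The sum of 6 mast cell markers was 11.4 to 72.5 CPM in WT and 47.2 to 69.4 CPM in Gsdmd-/- libraries, nearly all of it Kit, and that of 5 endothelial markers was 27.8 to 69.4 CPM in WT and 48.6 to 80.9 CPM in Gsdmd-/- libraries, mostly Kdr. Both sums were lowest in WT 2 and WT 3. Cdh5 and Pecam1 of the endothelial list did not follow Kdr. Cdh5 had 3.71, 5.38, 5.86 and 5.78 CPM and Pecam1 0.122, 0.550, 0.855 and 0.243 CPM in WT 1 to 4. Sums were at most 7.94 CPM for 8 neutrophil markers (Ly6g had 0 counts in all libraries), 2.86 CPM for 7 stromal, 0.609 CPM for 7 lymphoid and 0.427 CPM for 5 erythroid markers. For 8 dendritic cell markers the sums were 2230 to 2370 CPM in WT and 1670 to 2100 CPM in Gsdmd-/- libraries, nearly all of it Itgax. Clec9a of this list had 16.98, 49.1, 45.3 and 17.7 CPM in WT 1 to 4 and 14.5 to 18.3 CPM in Gsdmd-/- libraries, high in WT 2 and WT 3. Itgax (2206 to 2346 CPM in WT) and Zbtb46 (2.25, 2.69, 2.26 and 3.10 CPM in WT 1 to 4) did not follow Clec9a, and the other markers of the list were at most 1.28 CPM in WT. Reads of mitochondrial genes made up 2.52% and 2.53% of the counts in WT 2 and WT 3, 1.67% and 1.95% in WT 4 and WT 1, and 2.16% to 2.34% in Gsdmd-/- libraries. The part of these differences in the complement results was not tested.

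To compare levels between genes, counts were divided by exon length and scaled to a total of 1000000 in every library (TPM, means ± SD, n = 4). In Gsdmd-/- macrophages Cfp had the highest level (441 ± 15.03 TPM), followed by C1qb (295 ± 29.4), C3ar1 (272 ± 35.0), C1qc (87.6 ± 14.0), C1qa (35.9 ± 6.82), C3 (22.2 ± 5.91), C5ar1 (5.32 ± 1.05), C5ar2 (0.801 ± 0.195) and Cfb (0.0825 ± 0.0292). In this order the libraries of C1qb and C3ar1 overlapped (259 to 327 and 231 to 304 TPM), as did those of C1qa and C3 (27.3 to 43.9 and 14.5 to 27.8 TPM), while the other neighbours did not. In WT macrophages the order of the means was the same, with 413 ± 173 TPM for Cfp, 402 ± 334 for C1qb and 318 ± 53.7 for C3ar1, but these 3 genes overlapped. Further down the WT order, C1qc overlapped with C1qa, C1qa with C3, and C3 with C5ar1.

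Transcripts of the C1q subunits were unequal in every library. Per exon length, C1qb made up 62.4% to 75.6% of the C1q transcripts in WT and 67.5% to 74.3% in Gsdmd-/- libraries, and C1qc 12.7% to 20.4% and 18.5% to 22.9%. C1qa made up 14.1%, 9.78%, 11.7% and 18.5% in WT 1 to 4 and 9.62%, 9.42%, 8.06% and 7.12% in Gsdmd-/- 1 to 4, so that all WT libraries were above all Gsdmd-/- libraries, WT 2 by a narrow margin. This share does not depend on the scaling of the libraries, and it was not tested because it was chosen after the values were seen. The ratio of C5ar1 to C5ar2 transcripts was 5.97, 1.5, 2.61 and 8.05 in WT 1 to 4 and 9.32, 7.42, 5.36 and 5.46 in Gsdmd-/- 1 to 4. C5ar1 thus exceeded C5ar2 in every library, and least so in WT 2 and WT 3.

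**Figure D4:**
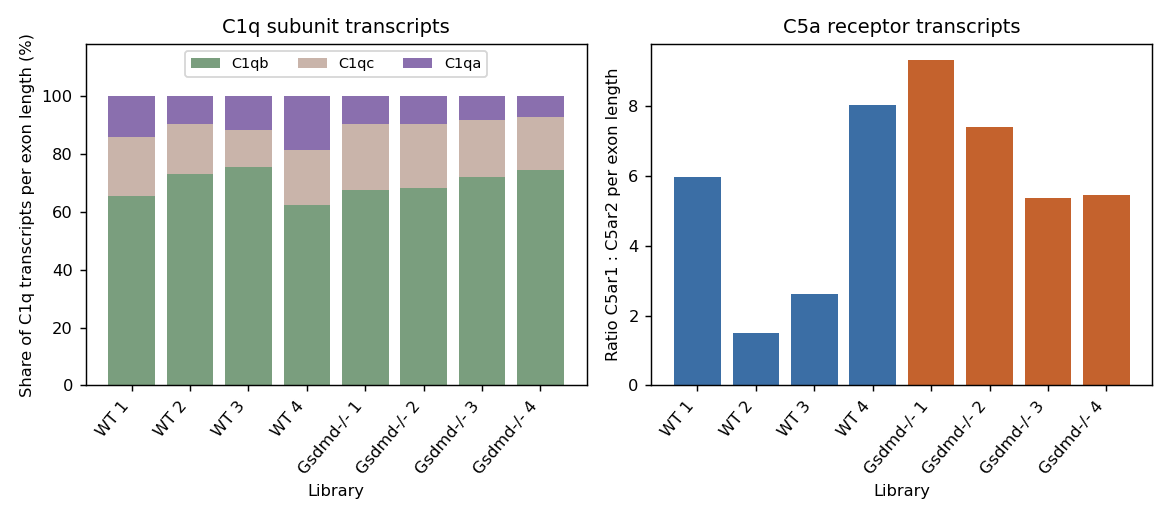
Left, share of each C1q subunit in the C1q transcripts per exon length (percent) for each library. Right, ratio of C5ar1 to C5ar2 transcripts per exon length in WT (blue) and Gsdmd-/- (orange) libraries. C1qa takes 9.78% to 18.5% in WT and 7.12% to 9.62% in Gsdmd-/- libraries, and the ratio is lowest in WT 2 (1.5).

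The genes whose pattern over the 8 libraries was most like that of the complement genes were found by the root mean square difference of mean-centred log2 CPM, among genes with a mean of at least 10 CPM. C3ar1, which varied less than the median gene, was left out. For the mean of the C1q genes, whose own root mean square was 1.11, they were Ly6a (difference 0.248), Apoe (0.283) and Irf7 (0.357). Apoe, which encodes a lipid carrier secreted by macrophages, had 1010, 117, 125 and 1300 CPM in WT 1 to 4 and 453 to 614 CPM in Gsdmd-/- libraries. For C3 (own value 1.00) they were Rasgrp4 (0.293), Oasl2 (0.386) and Ly6a (0.397). For C5ar1 (0.51) they were P2ry13 (0.136), Creb5 (0.168) and Tnfaip3 (0.194), and for C5ar2 (0.79) Emp2 (0.301), Slc8a1 (0.360) and Acvrl1 (0.378). For Cfp (0.42) they were Clec7a (0.082), Nol12 (0.083) and Clec5a (0.096). Clec7a, the receptor for beta-glucans, had 4045, 2015, 2041 and 4659 CPM in WT 1 to 4 and 3158 to 3550 CPM in Gsdmd-/- libraries.

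The rest of the complement system was examined with a list of 47 genes, of which 12 had no count in any library and 15 were tested. None had an adjusted p under 0.05, where 0.349% of all genes did, and 3 had an unadjusted p under 0.05, where 12.0% did. The list had 8 tested genes above and 7 below 0, where 51.5% of all genes were below 0. The genotypes did not overlap for 4 of them, with Masp1 higher and Fcna, Itgb2 and Itgax lower. Over all genes 3.48% were higher and 4.12% lower without overlap. Of the genes for initiation, 5 of 17 were tested. Masp1, a serine protease of the lectin pathway, had 1.03, 0.428, 0.366 and 0.548 CPM in WT 1 to 4 and 1.72, 2.60, 1.59 and 1.33 CPM in Gsdmd-/- 1 to 4, with separate ranges and a log2 fold change of 1.6 ± 0.372 (adjusted p = 0.124). Fcna, which encodes ficolin A, a recognition protein of the same pathway, averaged 3.26 ± 0.902 CPM in WT against 2.07 ± 0.440 CPM in Gsdmd-/- macrophages, also with separate ranges (log2 fold change -0.65 ± 0.250, adjusted p = 0.346). Colec12, a scavenger receptor of the collectin family, had the highest CPM of this group (50.15 ± 21.4 in WT against 39.35 ± 10.4 in Gsdmd-/- macrophages), and the protease gene C1ra followed with 13.3 ± 2.78 against 14.1 ± 1.36 CPM. The protease gene C1s1 was near the limit of detection, with 9 counts over all WT and 6 over all Gsdmd-/- libraries. Among 7 genes of the terminal pathway only C8g was tested, with 2.41 ± 0.587 against 2.53 ± 0.307 CPM.

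Of 15 regulators 3 were tested. Cr1l, which encodes the membrane regulator Crry, was the most abundant regulator by CPM, with 66.1 ± 4.70 in WT against 65.7 ± 5.77 in Gsdmd-/- macrophages. Cd59a, whose product blocks the membrane attack complex, had 4.02, 12.4, 14.6 and 3.77 CPM in WT 1 to 4 and 11.6 to 13.0 CPM in Gsdmd-/- libraries. Its WT values were high where those of C1q and C3 were low, and the log2 fold change of 0.51 ± 0.389 had an adjusted p of 0.661. Clu, which encodes clusterin, an inhibitor of the terminal complex, averaged 3.92 ± 1.49 CPM in WT against 3.46 ± 0.104 CPM in Gsdmd-/- macrophages (adjusted p = 0.831). Of 8 receptors 6 were tested. By CPM the highest were Itgb2, the shared chain of complement receptors 3 and 4 (3196 ± 52.2 in WT against 3111 ± 48.2 in Gsdmd-/- macrophages, with separate ranges and a log2 fold change of -0.04 ± 0.0745), Itgax and Calr. Itgax, the other chain of receptor 4, averaged 2273 ± 70.2 CPM against 1917 ± 189 CPM with separate ranges and a log2 fold change of -0.25 ± 0.0930 (adjusted p = 0.337). Calr, the calreticulin gene whose product binds C1q, averaged 997 ± 98.3 CPM against 863 ± 65.8 CPM (adjusted p = 0.441).

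**Figure D5:**
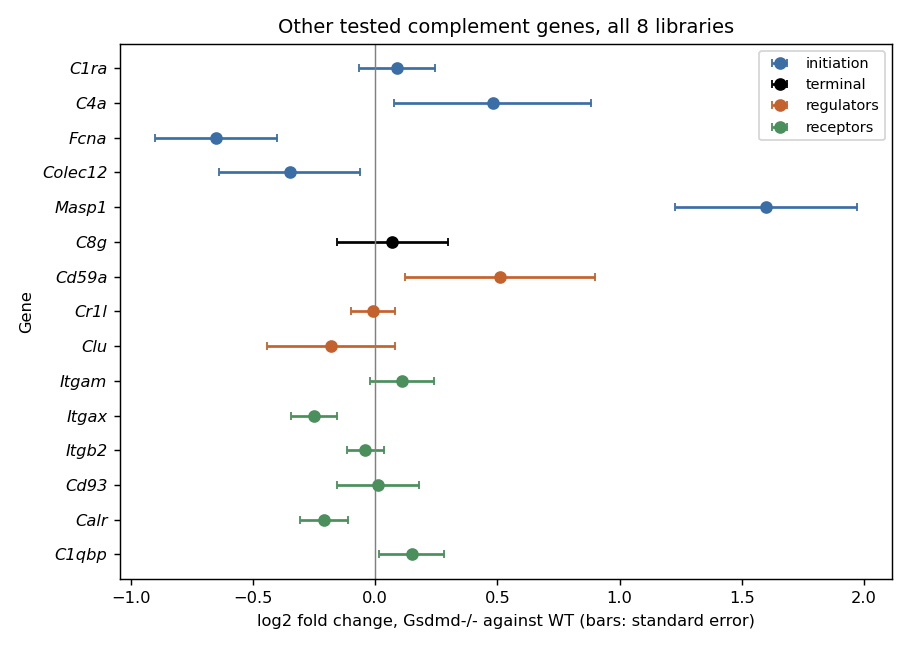
log2 fold change of Gsdmd-/- against WT with its standard error for the 15 tested complement genes outside the 9 above, coloured by their role. Masp1 (1.6) lies highest, Fcna (-0.65) lowest, and Cr1l and Cd93 lie at 0 within their errors.

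Transcription factors known to act on these genes were listed as well, and all 9 were tested. Irf1, an interferon-regulated factor, was the only one called, with 31.7, 38.9, 44.8 and 44.3 CPM in WT 1 to 4 and 21.1, 21, 26.6 and 25.2 CPM in Gsdmd-/- 1 to 4. It was lower in Gsdmd-/- macrophages (log2 fold change -0.77 ± 0.133, adjusted p = 0.0468), where 0.209% of all genes were called lower. Spi1, which encodes PU.1, averaged 545 ± 80.7 CPM in WT against 526 ± 49.7 CPM in Gsdmd-/- macrophages, Cebpb 337 ± 40.8 CPM against 325 ± 57.9 CPM, and Nfkb1, an NF-kappaB subunit gene, 97.3 ± 11.1 CPM against 92.1 ± 6.09 CPM. Nr1h3, the lipid-sensing receptor LXR alpha, had 20.7, 35.7, 33.9 and 27.9 CPM in WT 1 to 4 and 20.6 to 23.0 CPM in Gsdmd-/- libraries (log2 fold change -0.43, adjusted p = 0.321), and Cebpd was at 24.3 ± 2.53 against 30.0 ± 4.47 CPM (log2 fold change 0.30, adjusted p = 0.374).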

How the data were processed

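RNA was sequenced from BMDMs of WT and Gsdmd-/- mice, 4 libraries each. A company extracted total RNA, prepared TruSeq libraries and sequenced them, and the authors deposited the raw read counts per gene, with mm10 as genome build per the submitters' processing notes. The aligner, the counting tool and the annotation are not given in the sources used here, nor is the use of strand. Positions and exon lengths were taken from GENCODE M21 (99.9% of genes matched) and promoters from RefSeq. Genes were tested with edgeR 4.0.16 in R 4.3.3 (filterByExpr, TMM, quasi-likelihood test, two-sided, genotype as the only term, Benjamini-Hochberg over 12911 genes). The log2 CPM used a prior count of 2, and standard errors were derived from the F statistic. Alternatives were DESeq2 1.42.0, voom of limma 3.58.1 and the exact test of edgeR, RLE or upper-quartile factors in place of TMM, other filters on low counts (none, or a minimum of 10 counts per library), a replicate block, and libraries left out. Leaving out WT 2 and WT 3 followed from their place on the first principal component of these same data. Leaving out WT 1 and WT 4 was chosen after seeing the data. The tests were tested on simulated data. All 9 genes are named, and of the other complement and transcription factor lists those with an unadjusted p under 0.05, up to 3 with the highest CPM, and an example near the limit of detection. Some genes of the other lists are not reported here and are in none of the list counts. The genes and lists were chosen with earlier results of these data known. Same-numbered libraries were not paired (correlations of deviations of 0.03, 0.18, 0.04 and -0.20). No 2 libraries of a genotype agreed within sampling noise (chi-square per degree of freedom of at least 5.84).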

Additional observations from a re-analysis of the deposited data

Results flagged for a closer look

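Cfb in Gsdmd-/- 1 stood apart from the other Gsdmd-/- libraries, with a gap to the nearest library of 0.879 of the whole range. It rests on 2 counts against 1 count in each of the other 3 libraries. Among 9 genes in 2 genotypes about 1 in 20 such groups is marked by chance.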

How the results depend on the processing

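With all libraries, 0 of the 8 tested complement genes had an adjusted p under 0.05 in either direction, against 18 higher and 27 lower of all genes. By the study's cutoff (unadjusted p under 0.05 with a log2 fold change of 0.5 or more in size) these numbers were 0 higher and 2 lower, against 199 and 424. At an adjusted p under 0.05, 1 complement gene (C5ar2) was lower with the exact test of edgeR (log2 fold change -1.57), with DESeq2 (-1.58) and with no filter on low counts (-1.55). Of all genes 92 were then higher and 154 lower with the exact test, 105 and 187 with DESeq2, and 44 and 65 with no filter, where 421 and 783 passed the study's cutoff. With limma voom 1 complement gene was lower by the study's cutoff, against 239 higher and 320 lower of all genes, and the log2 fold changes of C1qb and C1qc turned to 0.09 and 0.35. The cause was not tested.

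Libraries with the same number did not deviate together (correlations of 0.03, 0.18, 0.04 and -0.20) and were not treated as pairs. The replicate block called no complement gene at an adjusted p under 0.05, called 9 of all genes higher and 16 lower, and turned C1qb to 0.08 and C1qc to 0.30.

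WT 2 and WT 3 were left out because they stood apart on the first principal component of these same data. Without them, 5 complement genes were lower at an adjusted p under 0.05 and 6 by the study's cutoff. Of all genes 53 were then higher and 108 lower, and 405 were higher by the cutoff. The log2 fold changes were -2.31 for C1qa, -1.22 for C1qb, -1.27 for C1qc, -1.51 for C3, -1.19 for C5ar1 and -0.34 for Cfp, which turned. Without WT 1 and WT 4, chosen after seeing the data, 5 were higher and 2 lower at an adjusted p under 0.05, and 5 higher and 1 lower by the cutoff. Of all genes 1259 were then higher and 1519 lower, and 892 and 1322 by the cutoff. The log2 fold changes turned to 1.15 for C1qa, 1.41 for C1qb, 2.0 for C1qc and 1.23 for C3, and were 0.77 for Cfp, -0.30 for C3ar1 and -1.91 for C5ar2. These fits differ from that with all libraries only in the libraries kept and the genes that passed the filter.

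With each library left out in turn, 0 to 1 complement gene was lower at an adjusted p under 0.05 (1, C5ar2, without WT 4), and 1 to 3 by the study's cutoff. Of all genes 8 to 28 were higher and 5 to 56 lower at an adjusted p under 0.05, and 155 to 318 and 297 to 704 by the cutoff. The log2 fold change was -1.80 to -0.59 for C1qa, -0.76 to 0.09 for C1qb, -0.76 to 0.18 for C1qc, -1.04 to -0.20 for C3, -0.28 to -0.14 for C3ar1, -0.92 to -0.51 for C5ar1, -1.71 to -1.26 for C5ar2 and -0.07 to 0.39 for Cfp. C1qb and C1qc turned without WT 4, and Cfp without WT 2 and without WT 3 (-0.04). Depth limits C5ar2 (11 to 72 counts per library) and Cfb (0 to 7), which was -1.26 ± 0.958 (standard error, adjusted p = 0.652) with no filter.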
